A study of Homo sapiens with 45 samples.

Results

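Lamins and inner nuclear membrane proteins were followed as a group of 10 genes, picked by symbol from the 28278 gene names of the count table: LMNA, LMNB1, LMNB2, LBR, EMD, TMPO, LEMD2, LEMD3, BANF1 and SUN2. All 10 were present in every count table and all 10 passed the filter on low counts. The nuclear lamina is a meshwork of lamin filaments under the inner nuclear membrane. Lamins A and C, from LMNA, and the B-type lamins, from LMNB1 and LMNB2, form the filaments, and the membrane proteins of this group tether the filaments, chromatin and the cytoskeleton to each other. LBR binds B-type lamins and heterochromatin protein 1, the LEM-domain proteins EMD, TMPO, LEMD2 and LEMD3 bind the small DNA-bridging protein encoded by BANF1, and SUN2 links the lamina to the cytoskeleton through nesprins.

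All cells were HCT116, an established human colon cancer line, transfected with siRNA at 25 nM by RNAiMAX and collected after 72 hours. RNA was sequenced from 4 libraries with the nontargeting control siNTC5, 4 libraries with HNRNPK siRNA (siHNRNPK) and 2 further nontargeting libraries named Scramble. The siRNA target, HNRNPK, codes for an hnRNP protein that binds C-rich RNA and DNA. Replicates 1 and 2 of siNTC5 and siHNRNPK and both Scramble libraries were made with the TruSeq stranded mRNA kit, and replicates 3 and 4 with the Stranded mRNA Ligation kit. RNA was purified with the RNeasy mini kit for Scramble and with the Maxwell RSC kit for the others. Chromatin was analysed through 7 deposited domain lists, from immunoprecipitation of lamin B1, H3K9me3 and H3K27me3 after each siRNA and of H3K9me2 in control cells only. Nothing in the labels says that replicates came from separate cultures, so the tests measure the spread between libraries, which may be technical.

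Total counts ran from 14810376 to 23633851 in siNTC5, from 12107280 to 15255556 in siHNRNPK and from 55007171 to 59209169 in Scramble. HNRNPK itself lay between 814 and 967 CPM (counts relative to library size after TMM scaling) in siNTC5 and between 157 and 250.4 CPM in siHNRNPK, with no overlap, and stood at 22.2% of control. The epithelial markers EPCAM, KRT8, KRT18, KRT19 and CDH1 were all detected, each with at least 1425 counts in every library. Of the markers of other cell types, PTPRC (blood) had at most 2 counts, PECAM1 (endothelium) at most 6 and ALB (liver) at most 12, whereas COL1A1 (fibroblasts) had 910 to 1613. COL1A1 was higher in siHNRNPK by 0.69 on the log2 scale (edgeR, adjusted p = 8.5e-09). In the same comparison EPCAM, KRT8, KRT18 and CDH1 were also higher, by 0.67, 0.98, 1.41 and 0.66. KRT19 changed by -1.27. The part of these changes in the values below was not tested. In bulk RNA, fewer cells of a type and less RNA per cell cannot be told apart.

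The promoter windows of 6 genes are printed because these genes carry the findings: SUN2, LMNA and LMNB2 fell most after HNRNPK siRNA, LEMD3 and BANF1 rose, and LEMD2 was the one gene inside a histone mark domain. Each is the first RefSeq window of its gene on GRCh38.p14, 250 bases before to 50 bases after the annotated start, written 5′ to 3′ on the gene's strand. The start is the 5′ end of the gene span in 5 of the 6; the window listed for LEMD2 belongs to a start 2188 bases inside its gene span. Capitals mark matches to CCAAT (the CCAAT box), TTTGAA (the letters of the cell cycle homology region) or GGGCGG (the GC box) on either strand. These letters do not overlap between motifs, although neighbouring GGGCGG matches run together in SUN2. The windows lie at chr22:38755949-38756248 (-), chr1:156082323-156082622 (+), chr19:2456910-2457209 (-), chr12:65169333-65169632 (+), chr11:66002253-66002552 (+) and chr6:33786893-33787192 (-).
SUN2: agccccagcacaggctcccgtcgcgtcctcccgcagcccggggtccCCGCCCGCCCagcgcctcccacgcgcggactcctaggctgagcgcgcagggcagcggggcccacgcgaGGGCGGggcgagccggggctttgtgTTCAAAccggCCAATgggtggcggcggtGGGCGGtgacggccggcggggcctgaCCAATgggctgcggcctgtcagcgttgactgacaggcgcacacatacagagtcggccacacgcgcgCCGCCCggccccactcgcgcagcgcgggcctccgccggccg
LMNA: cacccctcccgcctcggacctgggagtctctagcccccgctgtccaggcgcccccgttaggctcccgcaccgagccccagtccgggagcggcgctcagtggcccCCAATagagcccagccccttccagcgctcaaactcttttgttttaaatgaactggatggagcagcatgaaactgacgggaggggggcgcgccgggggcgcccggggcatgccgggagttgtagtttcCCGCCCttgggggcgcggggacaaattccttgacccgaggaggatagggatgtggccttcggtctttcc
LMNB2: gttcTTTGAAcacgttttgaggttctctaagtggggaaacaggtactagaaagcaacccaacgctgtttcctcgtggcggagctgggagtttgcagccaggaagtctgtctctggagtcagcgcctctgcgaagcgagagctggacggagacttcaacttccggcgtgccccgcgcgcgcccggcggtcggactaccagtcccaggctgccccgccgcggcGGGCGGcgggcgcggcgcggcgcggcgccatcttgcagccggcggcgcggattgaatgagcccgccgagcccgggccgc
LEMD3: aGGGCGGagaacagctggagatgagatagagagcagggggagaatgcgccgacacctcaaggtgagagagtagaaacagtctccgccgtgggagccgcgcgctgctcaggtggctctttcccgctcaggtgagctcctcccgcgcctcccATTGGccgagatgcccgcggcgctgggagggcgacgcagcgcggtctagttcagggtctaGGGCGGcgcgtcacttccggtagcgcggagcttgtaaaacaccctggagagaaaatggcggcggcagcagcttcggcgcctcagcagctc
BANF1: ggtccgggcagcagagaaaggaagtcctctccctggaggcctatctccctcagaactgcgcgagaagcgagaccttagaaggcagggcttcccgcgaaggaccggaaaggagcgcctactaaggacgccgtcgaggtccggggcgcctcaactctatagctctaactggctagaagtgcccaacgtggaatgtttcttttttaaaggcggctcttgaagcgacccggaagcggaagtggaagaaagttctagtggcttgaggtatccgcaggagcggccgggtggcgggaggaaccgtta
LEMD2: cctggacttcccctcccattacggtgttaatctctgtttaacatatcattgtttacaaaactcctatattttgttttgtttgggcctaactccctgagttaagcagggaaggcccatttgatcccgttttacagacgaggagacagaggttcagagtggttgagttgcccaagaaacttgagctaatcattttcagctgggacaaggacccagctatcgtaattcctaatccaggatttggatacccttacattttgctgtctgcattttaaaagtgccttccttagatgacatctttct

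RefSeq lists 16 such windows for the 10 genes, and the pair for TMPO overlaps. CCAAT occurred in 7 of the 16, from 6 of the 10 genes, against 34.6% of all 35116 windows in the table. TTTGAA occurred in 2, the windows of LMNB2 and SUN2 printed above, against 15.2% of all windows. GGGCGG occurred in 12, from 7 of the 10 genes, against 45% of all windows. Windows of the same gene are not independent, and the windows of the table were not limited to genes that passed the filter on low counts. BANF1, LBR and LEMD2 held none of the 3 motifs in their windows. The first SUN2 window was 77.0% GC and held all 3 motifs, while the internal LEMD2 window was 42.3% GC and that of LBR 38.3%, against a median of 58.7% over all windows. A match describes letters and not binding.

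After HNRNPK siRNA the lamina genes split. SUN2, LMNA and LMNB2 fell most, to 52.1%, 57.6% and 62.4% of siNTC5, and LMNB1, EMD, LEMD2 and LBR fell by smaller amounts. LEMD3 and BANF1 rose, to 135.8% and 119.7% of control, and TMPO stood at 100.6%. By edgeR's quasi-likelihood test with library kit in the model and Benjamini-Hochberg adjustment over all genes, 9 of the 10 passed an adjusted p of 0.05. Over all 13933 tested genes 71.5% passed, so a share of 9 in 10 is not far above the background. Of the 9, 7 were lower and 2 higher, where 36.1% of all genes were called lower and 35.5% higher. The median log2 fold change of the 10 was -0.26, against -0.004 over all genes, and their median absolute change was 0.30, against 0.41. The CPM values of siNTC5 and siHNRNPK did not overlap for 8 of the 10 genes, as for 56.5% of all tested genes.

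**Figure D1:**
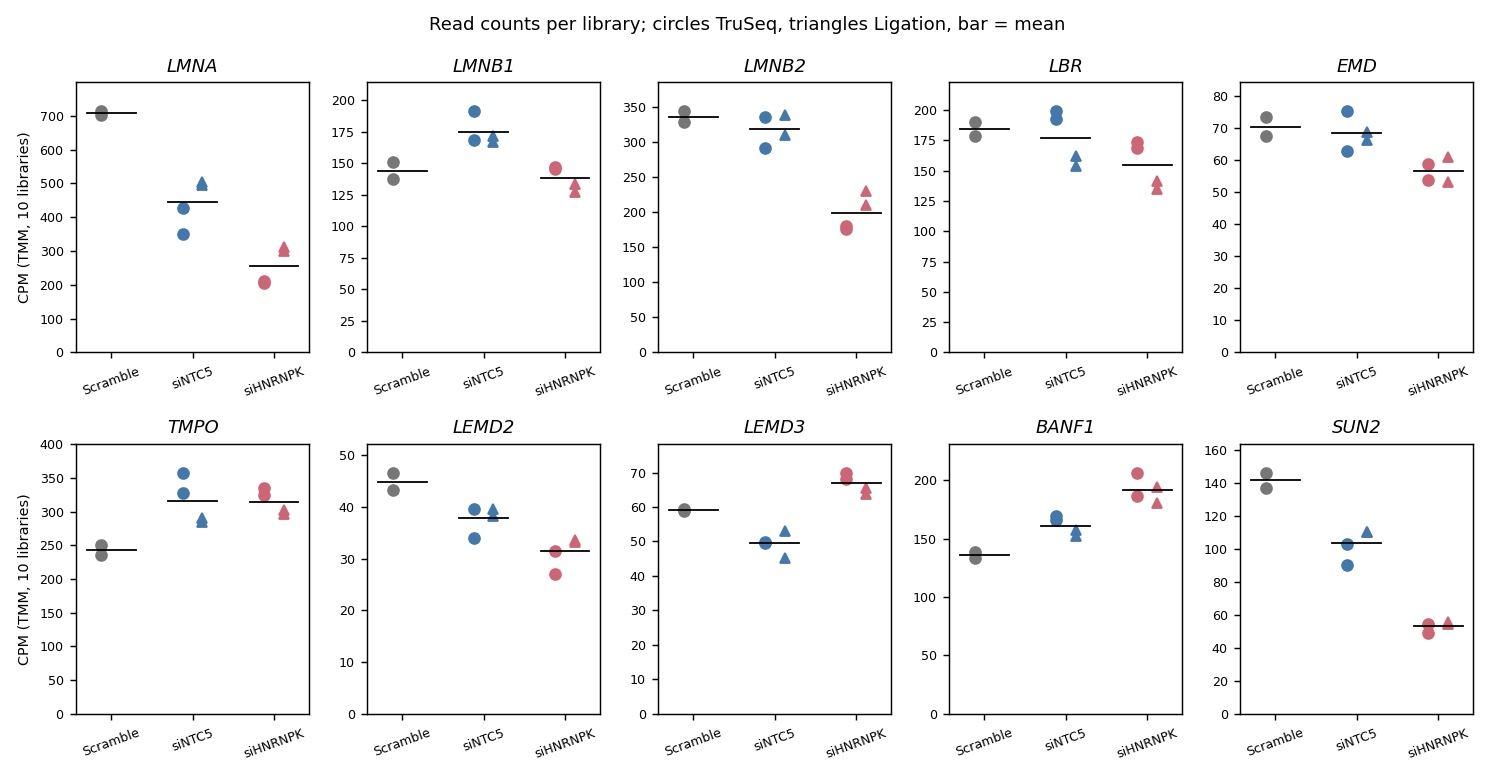
Read counts of the 10 genes per library, in CPM (vertical axes from 0, TMM scaling over all 10 libraries), for Scramble, siNTC5 and siHNRNPK. Circles are TruSeq libraries, triangles are Ligation libraries and bars are group means. SUN2, LMNA, LEMD2, LEMD3 and BANF1 separate all 3 groups, whereas TMPO overlaps between siNTC5 and siHNRNPK and is lower in Scramble. The share of all genes that separate all 3 groups was not computed.

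LMNA encodes lamins A and C, the A-type lamins, which scale with the stiffness of a cell's surroundings. Its gene spans chr1:156082573-156140081 (GRCh38.p14, as all positions here). In siNTC5 replicates 1 to 4 it stood at 429, 349.6, 500.6 and 492 CPM, and in siHNRNPK replicates 1 to 4 at 212, 204, 313 and 303 CPM. Every knockdown library lay below every control library, and in both groups the Ligation libraries were higher than the TruSeq libraries. The means were 443 ± 69.9 and 257.8 ± 57.9 CPM (SD, n = 4 each). The log2 fold change was -0.80 ± 0.06 (SE; edgeR, adjusted p = 6.48e-10), which placed LMNA at percentile 12.3 of all tested genes, counted from the largest fall.

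LMNB2 (chr19:2428166-2456959), a B-type lamin, moved more than its relative LMNB1. It stood at 337, 292, 337 and 308 CPM in siNTC5 replicates 1 to 4 and at 181, 176, 231 and 212 CPM in siHNRNPK. The groups did not overlap, and its mean went from 318.8 ± 22.3 to 200.0 ± 26.1 CPM (SD, n = 4 each). The log2 fold change was -0.68 ± 0.06 (SE; edgeR, adjusted p = 8.25e-09). The microRNA gene MIR7108, which RefSeq places within LMNB2, had 0 counts in all 8 libraries.

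LMNB1 (chr5:126776623-126837020) encodes lamin B1, the B-type lamin precipitated in the chromatin experiments. Its values were 169, 191, 166 and 171 CPM in siNTC5 and 146, 147, 128 and 135 CPM in siHNRNPK. The groups did not overlap, but siNTC5 replicate 2 stood above the other 3 controls. The log2 fold change was -0.33 ± 0.05 (SE; edgeR, adjusted p = 4.22e-06), and it was -0.30 without that library (adjusted p = 9.69e-06). With the Scramble libraries added to the controls it was -0.24 and no longer passed (edgeR, adjusted p = 0.058).

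SUN2 (chr22:38734734-38755998), the SUN-domain protein that spans the inner nuclear membrane, fell most of the 10. Its values were 104, 90.3, 110.1 and 109.6 CPM in siNTC5 and 54.6, 49.2, 54.6 and 56.3 CPM in siHNRNPK. Each knockdown library was well below the lowest control. The means were 103.4 ± 9.19 and 53.68 ± 3.11 CPM (SD, n = 4 each). The log2 fold change was -0.94 ± 0.06 (SE; edgeR, adjusted p = 5.15e-11), at percentile 9.24 of all tested genes. SUN2 overlaps GTPBP1 in RefSeq; GTPBP1 was higher in siHNRNPK by 0.16 on the log2 scale (edgeR, adjusted p = 0.00857), opposite in direction to SUN2.

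LEMD3 (chr12:65169583-65248355) encodes MAN1, a LEM-domain protein that also binds receptor-activated SMADs. It stood at 49.8, 49.8, 44.8 and 52.8 CPM in siNTC5 and at 68.4, 69.9, 63.9 and 65.9 CPM in siHNRNPK. All 4 knockdown libraries were above all 4 controls, and the log2 fold change was 0.44 ± 0.06 (SE; edgeR, adjusted p = 2.03e-06). BANF1 (chr11:66002503-66004149), whose product bridges DNA and gathers LEM-domain proteins at the reforming nuclear envelope, went the same way. Its values were 166, 169, 151 and 156 CPM in siNTC5 and 207, 186, 181 and 195 CPM in siHNRNPK. These did not overlap either, with a log2 fold change of 0.26 ± 0.05 (SE; edgeR, adjusted p = 5.5e-05).

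Of the other LEM-domain genes, EMD and LEMD2 were lower and TMPO did not pass. EMD (chrX:154379295-154381523), which encodes emerin, the protein absent in X-linked Emery-Dreifuss muscular dystrophy, was 75.4, 62.7, 68.4 and 65.8 CPM in siNTC5 and 58.8, 53.6, 53.4 and 61.3 CPM in siHNRNPK. The highest knockdown library lay just under the lowest control, and the log2 fold change was -0.26 ± 0.07 (SE; edgeR, adjusted p = 0.00187). LEMD2 (chr6:33771213-33789130), which takes part in nuclear envelope sealing, was 39.8, 34.0, 39.4 and 38.1 CPM in siNTC5 and 31.6, 27.1, 33.5 and 33.9 CPM in siHNRNPK. Its groups were likewise separated by a narrow gap, and its log2 fold change was -0.26 ± 0.07 (SE; edgeR, adjusted p = 0.00376).

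TMPO (chr12:98515573-98550351) encodes the LAP2 proteins, of which some are membrane-bound and one is nucleoplasmic; gene counts do not separate them. It stood at 329, 358, 283 and 289 CPM in siNTC5 and at 326, 335.5, 304 and 298 CPM in siHNRNPK. The groups overlapped over both kits and within TruSeq, but not within Ligation, where siHNRNPK was higher. The log2 fold change of 0.01 ± 0.04 (SE) did not pass (edgeR, adjusted p = 0.87). RefSeq places TMPO-AS1 over TMPO; it had 15 to 59 counts per library, and the strand setting of the counting is not given in the sources used here. LBR (chr1:225401502-225428821), a lamin B receptor that is also a sterol reductase, was 193, 199, 153 and 161 CPM in siNTC5 and 169, 174, 135 and 143 CPM in siHNRNPK. The groups overlapped when the kits were pooled, because both groups were higher with TruSeq, but they were separate within each kit. Its log2 fold change was -0.19 ± 0.04 (SE; edgeR, adjusted p = 0.000601), and without the kit term it was -0.19 and did not pass (adjusted p = 0.139).

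**Figure D2:**
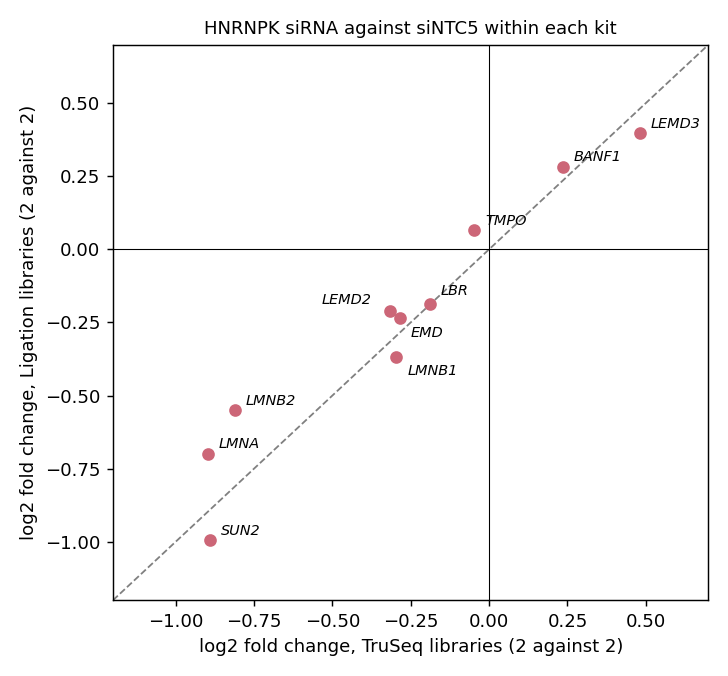
Log2 fold change of each gene after HNRNPK siRNA within the TruSeq libraries (horizontal axis) and within the Ligation libraries (vertical axis), 2 against 2 libraries each, with the dashed line marking equal change. SUN2 lies at -0.89 and -0.99, LMNA at -0.90 and -0.70, and LEMD3 at 0.48 and 0.40; TMPO lies near 0 on both axes.

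All but TMPO passed in edgeR within TruSeq alone and within Ligation alone, with the same direction in both. In the fit of both kits 71.5% of all genes passed. The share of all genes passing within each kit is not given here, so this count has no background of its own. LMNB2 changed by -0.81 on the log2 scale in TruSeq and by -0.55 in Ligation, and LMNB1 by -0.30 and -0.37. A test of the interaction of siRNA and kit called 0 of the 10 genes in edgeR, where 0.129% of all genes were called; DESeq2 called 0 of the 10 as well. At an unadjusted p of 0.05, 1639 of all 13933 tested genes passed in edgeR. Of the 10, 2 passed: LMNB2, with an interaction of 0.27 ± 0.10 (SE; edgeR, adjusted p = 0.281), and LMNA, with 0.21 ± 0.10 (SE; adjusted p = 0.424). Without siNTC5 replicate 2 the interaction was 0.34 for LMNA and 0.36 for LMNB2, in a fit where 1 library stands for its arm and is assumed to vary like the others.

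The balance of A-type to B1-type lamin transcripts was taken as the ratio of LMNA to LMNB1 counts within each library, which needs no scaling between libraries. It was 2.54, 1.83, 3.01 and 2.88 in siNTC5 replicates 1 to 4 and 1.45, 1.39, 2.44 and 2.25 in siHNRNPK replicates 1 to 4. Within each kit both knockdown libraries lay below both controls, whereas the pooled groups overlapped. The mean log2 ratio differed by -0.46, which did not pass a two-sided exact permutation test (p = 0.143, n = 4 each; the smallest p possible is 0.0286). That test sets kit and replicate number aside. Set side by side by replicate number, the log2 ratio was lower in siHNRNPK in 4 of 4 pairs, by -0.81, -0.39, -0.30 and -0.36. Whether the replicate numbers pair beyond the shared kit was not settled. Exact tests added after seeing the data gave p = 0.125 over the signs of the pairs and p = 0.0556 with libraries permuted within kit; each is the smallest p its design allows, so neither could pass 0.05. Within TruSeq the difference was -0.60 and within Ligation -0.33, where 2 against 2 libraries cannot go below an exact p of 0.333. In the Scramble libraries the ratio was 5.09 and 4.73, above all the others.

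**Figure D3:**
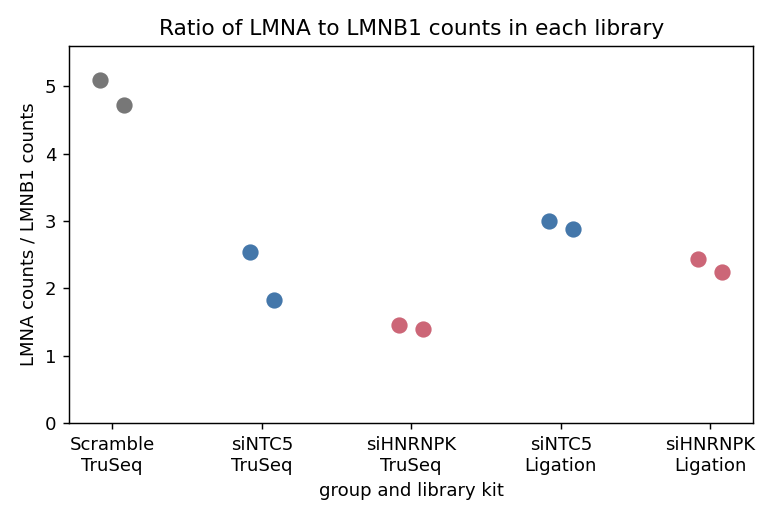
Ratio of LMNA to LMNB1 counts (vertical axis, from 0) in each of the 10 RNA libraries, by group and library kit, 1 point per library. The siHNRNPK points lie below the siNTC5 points of the same kit, and both Scramble points, at 5.09 and 4.73, lie above all others.

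The Scramble libraries served as other nontargeting controls, and several lamina genes differed between the control sets. LMNA and SUN2 were higher in Scramble than in siNTC5, and TMPO, LMNB1 and BANF1 were lower. In edgeR 7 of the 10 genes passed, 4 higher and 3 lower, where 69.3% of all 14642 tested genes passed, 37.5% higher and 31.8% lower. The Scramble libraries differ from siNTC5 in purification kit, depth and count table, and hg19 stands beside hg38 in their processing notes, so the control siRNA cannot be told apart from these steps. CPM values in the account of Scramble were scaled over all 10 libraries.

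LMNA stood at 701 and 714 CPM in Scramble, above every siNTC5 library, whose mean on this scale was 444.2 ± 71.5 CPM (SD, n = 4). Its log2 fold change against siNTC5 was 0.91 ± 0.07 (SE; edgeR, adjusted p = 1.77e-09). SUN2 stood at 146 and 137 CPM, also above all 4 siNTC5 libraries, with 0.53 ± 0.07 (SE; edgeR, adjusted p = 1.12e-06). LEMD2, at 46.7 and 43.2 CPM, and LEMD3, at 59.5 and 58.9 CPM, were the remaining genes called higher, by 0.31 and 0.23 on the log2 scale (edgeR, adjusted p = 0.0032 and 0.00801). LEMD2 and LEMD3 did not pass under upper-quartile scaling (adjusted p = 0.0673 and 0.257), and with library totals alone LEMD3 turned to -0.0049 (adjusted p = 0.956).

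TMPO stood at 236 and 251 CPM in Scramble, below every siNTC5 and siHNRNPK library, with a log2 fold change against siNTC5 of -0.47 ± 0.06 (SE; edgeR, adjusted p = 5.58e-07). LMNB1, at 138 and 151 CPM, was lower than in siNTC5 (log2 fold change -0.34 ± 0.06, SE; edgeR, adjusted p = 9.93e-05), against 128 to 147 CPM in siHNRNPK. BANF1, at 134 and 138 CPM, was lower than every siNTC5 library, with -0.29 ± 0.06 (SE; edgeR, adjusted p = 0.000175). LMNB2, LBR and EMD did not pass, at 0.16, -0.09 and 0.04 on the log2 scale (edgeR, adjusted p = 0.0607, 0.149 and 0.65). LBR passed as lower under upper-quartile scaling (-0.22, adjusted p = 0.0011) and with library totals (-0.32), and EMD turned to -0.19 with library totals (adjusted p = 0.0384). LMNB2 passed without siNTC5 replicate 1 (0.26, adjusted p = 0.00113) and with no filter (0.16, adjusted p = 0.0149).

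All 12 cell cycle markers of a list chosen by function were called lower in Scramble than in siNTC5 in edgeR, where 31.8% of all genes were, with a median log2 fold change of -0.81. Their part in the lower TMPO, LMNB1 and BANF1 of these libraries was not tested. Between siHNRNPK and siNTC5 the same list was mixed, with 3 higher and 3 lower of 12 and a median of 0.02. MCM5 (-1.26), MCM2 (-0.64) and MKI67 (-0.27) had the smallest adjusted p in that comparison. The summed CPM of the list ran from 3075 to 3553 in siNTC5 and from 2969 to 3062 in siHNRNPK, and its part in the fall of LMNB1 was not tested.

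**Figure D4:**
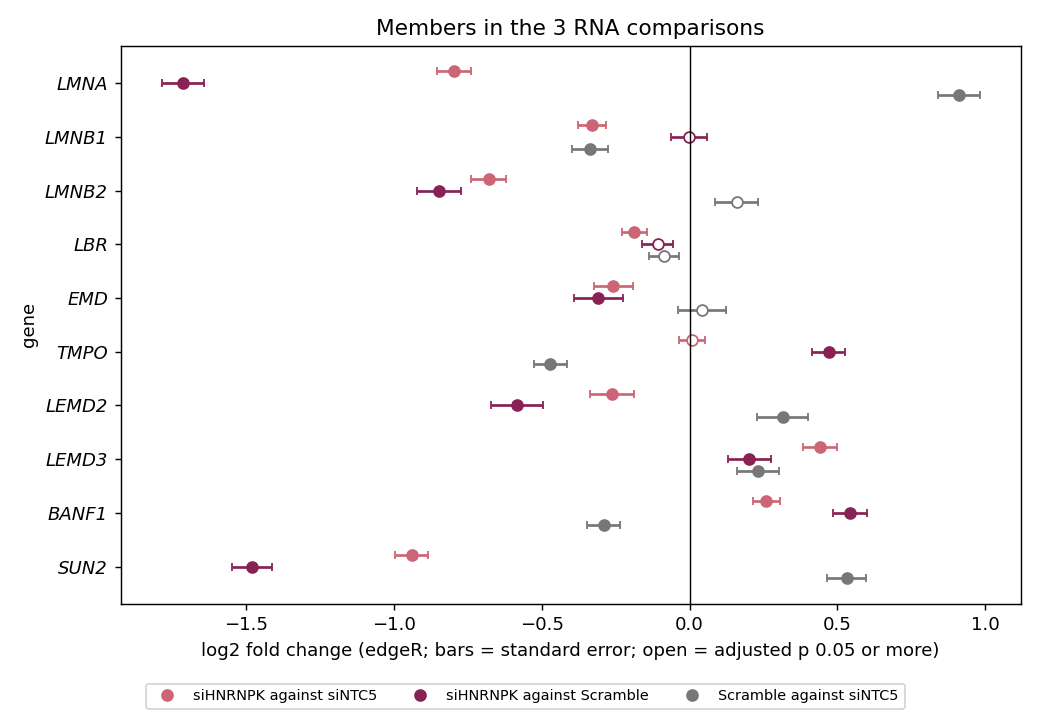
Log2 fold change of the 10 genes in edgeR (horizontal axis; bars are standard errors) for siHNRNPK against siNTC5, siHNRNPK against Scramble and Scramble against siNTC5, which share libraries; filled points passed an adjusted p of 0.05. LMNA, LMNB2 and SUN2 are lower in siHNRNPK against both controls, while LMNB1 is at 0 against Scramble.

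Set against Scramble, 8 of the 10 genes passed in siHNRNPK, 3 higher and 5 lower, where 81.2% of all genes passed, 38.8% higher and 42.4% lower. This comparison shares the siHNRNPK libraries with the one against siNTC5, so the values stand side by side and are not separate evidence. LMNA was at 30.5% of Scramble (log2 fold change -1.72 ± 0.07, SE; edgeR, adjusted p = 1.49e-13), SUN2 at 35.9% (-1.48 ± 0.07; adjusted p = 5.97e-13) and LMNB2 at 55.6% (-0.85 ± 0.07; adjusted p = 6.19e-09). LEMD2 and EMD were lower by smaller amounts, at -0.58 and -0.31 (edgeR, adjusted p = 7.23e-06 and 0.00217). EMD did not pass under upper-quartile scaling (-0.12, adjusted p = 0.161) or library totals (-0.11, adjusted p = 0.232).

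BANF1 (0.54), TMPO (0.47) and LEMD3 (0.20) were higher than in Scramble (edgeR, adjusted p = 7.65e-08, 3.81e-07 and 0.0151). TMPO, which did not pass against siNTC5, stood at 315.4 CPM in siNTC5 and 315.0 CPM in siHNRNPK on this scale (means, n = 4 each). LEMD3 lost its call with no filter (adjusted p = 0.105), with no kit term (0.051), without siHNRNPK replicate 2 (adjusted p = 0.0557), without Scramble replicate 1 (0.0613) or without Scramble replicate 2 (0.0845). LMNB1 did not pass, at -0.002 ± 0.06 (SE; edgeR, adjusted p = 0.976), and it was called higher with upper-quartile scaling (0.18, adjusted p = 0.0132) and with library totals (0.20, adjusted p = 0.00629). LBR, at -0.11, did not pass (edgeR, adjusted p = 0.0654), but passed without Scramble replicate 1 (-0.16, adjusted p = 0.0365) and with no filter (-0.16, adjusted p = 0.0153).

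Other genes linked to the lamina were read from lists chosen by function. Their counts in siHNRNPK against siNTC5 are to be read beside the 35.5% of all genes called higher and 36.1% called lower (71.5% in all). Of 13 tested genes listed for the inner nuclear membrane, the lamina and the ATPase torsin, 5 were higher and 7 lower. TOR1AIP2, which activates torsin, rose by 0.50 on the log2 scale (edgeR, adjusted p = 1.33e-09). PRR14, which ties heterochromatin to the lamina, changed by -0.80 and TMEM43, a membrane partner of emerin, by -0.53 (edgeR, adjusted p = 3.97e-08 and 1.07e-07). Among 4 nesprins, the cytoskeletal partners of SUN proteins, 1 was higher (SYNE3, 0.72) and 2 were lower (SYNE1, -0.38, and SYNE2, -0.15).

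Of 5 enzymes that process lamin tails, 2 were higher and 2 lower. ZMPSTE24, the protease that matures prelamin A, rose by 0.84 (edgeR, adjusted p = 4.39e-09), in the opposite direction to its substrate LMNA. ICMT, the methyltransferase, and FNTA, a subunit of farnesyltransferase, changed by -0.32 and -0.25 (edgeR, adjusted p = 6.2e-06 and 0.000943). Among 9 binding partners and kinases 4 were higher and 5 lower. RB1, the retinoblastoma protein that binds lamin A and LAP2, and VRK1, the kinase that phosphorylates the BANF1 protein, both changed by -0.88 (edgeR, adjusted p = 4.97e-11 and 1.19e-10). HDAC3, the histone deacetylase that meets emerin and LAP2, changed by -0.45 (adjusted p = 9.35e-08).

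As a description over the 8 libraries, which share kit and treatment, the profile of LMNA across log2 CPM was most like those of GPSM1 (Pearson r = 0.9981), UNK (0.9966) and IARS2 (0.9965). Those most like LMNB1 were OAS3 (0.9931), ECHS1 (0.993) and INTS9 (0.9905). Among the 10 genes themselves, LMNA and LMNB2 had r = 0.957, LMNB2 and SUN2 0.956, and LEMD3 and BANF1 0.898. LEMD3 ran against LMNB2 (r = -0.962) and SUN2 (r = -0.954).

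In the chromatin lists these genes lay outside lamin B1 domains. None of the 10 gene bodies overlapped a lamin B1 or H3K9me3 domain in control or depleted cells, or an H3K9me2 domain in control cells, where alone that mark was listed. For comparison, 13.04% of 26987 positioned genes had at least 50% of their body in a control lamin B1 domain and 9.23% in a knockdown one. The shares were 9.07% for control H3K9me2, 9.43% for control H3K9me3 and 13.26% for knockdown H3K9me3. By the same 50% rule, 0 of 10 genes is near the background of each of these lists. The 26987 genes include those that failed the filter on low counts, which all 10 passed. LEMD2 was the exception for H3K27me3, a mark of Polycomb repression. Its whole body and its promoter window lay in chr6:33735001-34170000 in control cells (the authors' score 0.71) and in chr6:33765001-34160000 in depleted cells (score 0.57), where the list medians were 0.884 and 0.923. With domains scoring below their list's median left out, 0 of the 10 genes lay in H3K27me3 in either list. LEMD2 was counted at 27.1 CPM or more in all 8 libraries. Of all positioned genes 22.7% lay in control H3K27me3 domains and 20.94% in knockdown ones by the same 50% rule.

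**Figure D5:**
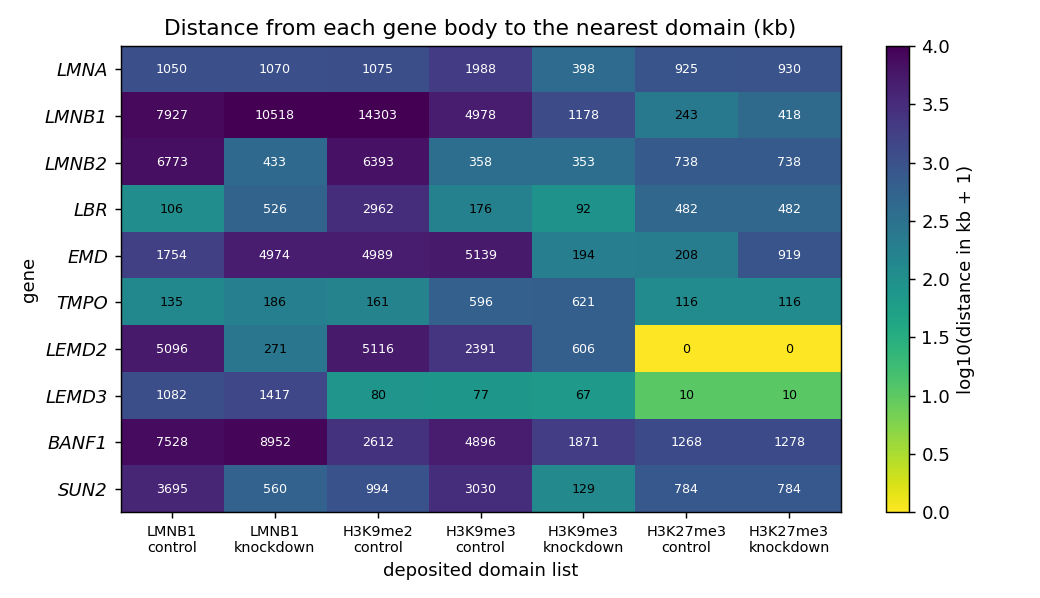
Distance in kb from each gene body to the nearest domain of the 7 deposited lists (columns), with colour on a log10 scale of distance plus 1 kb and the distance printed in each cell; 0 means overlap. LEMD2 is the only gene at 0, in both H3K27me3 lists, and LBR and TMPO lie closest to control lamin B1 domains.

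LBR and TMPO lay nearest to lamin B1 domains in control cells, at 106.5 and 134.6 kb, and were at 526.5 and 185.6 kb in the knockdown list. SUN2 went from 3694.7 to 559.7 kb, LMNB2 from 6773 to 433.2 kb and LEMD2 from 5095.9 to 270.9 kb. These 3 genes were nearer to a lamin B1 domain in the knockdown list and the other 7 were farther, with 880 domains in the control list and 730 in the knockdown list. To H3K9me3 domains 9 of the 10 were nearer in the knockdown list, such as SUN2 (3029.7 to 129 kb) and EMD (5139.3 to 193.5 kb), but that list holds 1996 domains against 895. To H3K27me3 domains 0 of the 10 were nearer in the knockdown list, 4 were farther, such as EMD (208.5 to 919.3 kb) and LMNB1 (243 to 418 kb), and 6 were at the same distance, LEMD3 at 9.6 kb among them. The H3K27me3 lists hold 1772 domains in control and 1686 in depleted cells. There is 1 list per antibody and siRNA, so these distances have no replicate error and no test, and the read depth behind them is unknown. The shares of all positioned genes that were nearer or farther were not computed, so these counts have no background beside them.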

How the data were processed

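RNA was measured in 10 libraries and chromatin as 7 domain lists. The authors deposited raw counts in whole numbers by gene symbol, in a table of 8 libraries and a table for each Scramble library. Per the submitters' processing notes the 8 libraries used STAR 2.7.1a, featureCounts and Subread 2.0.6 with hg38. For Scramble the notes list STAR 2.7.1a, featureCounts and DESeq2 with hg19 and hg38, with no role given. The domain lists hold a score per domain deposited by the authors; the notes name Bowtie2 2.5.1, fastp 0.23.2 and deepTools 3.1.3 with hg38, and the caller and the unit of the score are not given in the sources used here.

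Counts were filtered with filterByExpr by group, scaled by TMM and tested in edgeR 4.0.16 (R 4.3.3) with the quasi-likelihood test, kit and group as terms, and Benjamini-Hochberg adjustment over all tested genes at 0.05. Comparisons with Scramble used the 25527 shared names and 3 groups in 1 fit. Alternatives were DESeq2 1.42.0 and its size factors, upper-quartile scaling, other filters, no kit term, a replicate block, each kit alone, added Scramble controls, each library left out, a minimum absolute log2 fold change of 0.5 and, chosen after seeing the data, library totals with no scaling factor and paired and within-kit tests of the lamin ratio. Deviations from the group means correlated between siNTC5 and siHNRNPK libraries that share a number (r across genes 0.1004, 0.4246, 0.3365 and 0.2653). Libraries that share a number also share a kit. After the kit effect was removed r was -0.1909, -0.1556, -0.2811 and -0.2515. Unrelated libraries would also give a negative r here, because kit and group were fitted to few libraries. Without that baseline, the values do not settle whether the numbers pair beyond kit. The replicate block and the paired test of the lamin ratio treat the numbers as pairs, which these values neither show nor exclude. No 2 libraries of the same group and kit were duplicates, and other pairs were not compared. By chi-square of counts per degree of freedom, siNTC5 replicates 1 and 2 differed by 8.794 and the Scramble pair by 8.904. The remaining pairs stood at 2.335, 2.372 and 2.636. The fit was tried only on simulated counts with few changed genes, balanced in direction, and no kit effect. These settings differ from the data, so the trial does not vouch for the fit here.

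The 10 genes and all lists were chosen with earlier results of these data known. The text names all 10 genes, HNRNPK, up to 3 genes of each functional list by smallest adjusted p against siNTC5, and the 3 genes most like LMNA and LMNB1. Outside this rule it names all cell type markers, as a check of the label, and the genes that overlap a member. Gene positions and promoter windows came from RefSeq (GRCh38.p14). Drawing used Python 3.11.15 and matplotlib 3.10.9.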

Additional observations from a re-analysis of the deposited data

Results flagged for a closer look

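Of 24 groups of 4 libraries checked for a library far from the rest, 1 had one, and chance alone gives about 1 in 20 such groups. LMNB1 in siNTC5 replicate 2 stood at 191.26 CPM, above the other 3 siNTC5 libraries, which lay between 166 and 171 CPM. Without that library the log2 fold change of LMNB1 after HNRNPK siRNA was -0.30 (edgeR, adjusted p = 9.69e-06), and those of LMNA, LMNB2 and SUN2 were -0.84, -0.70 and -0.99.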

How the results depend on the processing

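Direction and side of the threshold were both kept in 185 of 200 values of the 10 genes against siNTC5, 156 of 170 in Scramble against siNTC5, 149 of 170 against Scramble and 106 of 120 for the interaction. With a minimum absolute log2 fold change of 0.5, 3 of the 10 genes were called against siNTC5 (0 higher, 3 lower), and 5557 of all genes. With each library left out in turn, 9 genes were called against siNTC5 every time, and the interaction called between 0 and 2. Over all genes the interaction called 18 in edgeR, 71 in DESeq2, 239 with no filter and 6 to 598 with a library left out. With the replicate block in place of kit, the fit called 9 of the 10 genes and changed no call (LMNA -0.79, adjusted p = 4.33e-10 in edgeR). In Scramble against siNTC5 the median over all genes moved from 0.04 with TMM to -0.10 with upper-quartile scaling and -0.20 with library totals, and the share of calls that were higher from 54.2% to 43.2% and 35.1%; against Scramble that share went from 47.7% to 56.6% and 57.5%. Sign changes concerned values that had not passed as reported, apart from LEMD3 in Scramble against siNTC5, which turned to -0.0049 under library totals. Against siNTC5, TMPO turned to -0.032 under library totals, -0.028 with no filter and -0.048 in TruSeq alone, and ran from -0.019 to 0.044 over left-out libraries. In Scramble against siNTC5, EMD turned to -0.093 under upper-quartile scaling and -0.19 under library totals and ran from -0.034 to 0.13 over left-out libraries. LMNB2 turned there to -0.076 under library totals, and LBR to 0.060 with no kit term. Against Scramble, LMNB1 turned to 0.022 with the size factors of DESeq2, 0.022 with its test, 0.021 in TruSeq alone, 0.18 under upper-quartile scaling and 0.20 under library totals, and ran from -0.076 to 0.052 over left-out libraries. LBR turned to 0.076 and 0.095 under the same scalings. The interaction of LBR turned to -0.021 under library totals; over left-out libraries it ran from -0.035 to 0.050 for LBR, -0.17 to 0.0093 for LMNB1, -0.088 to 0.18 for EMD, -0.016 to 0.23 for LEMD2, -0.20 to 0.040 for LEMD3 and -0.011 to 0.14 for BANF1. The cause of these changes was not tested. The count of genes in H3K27me3 domains, 1 in each list, was 2 with bodies extended by 50 kb and 0 with the upper scores alone; counts for the other marks stayed at 0. Over left-out libraries the log2 ratio of LMNA to LMNB1 differed by -0.62 to -0.33; 3 against 4 libraries cannot go below an exact p of 0.0571. Depth limits the lamina genes little, since each had at least 365 counts in every library; the domain lists carry no depth.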
